A study of Homo sapiens with 3 samples.

Results

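The keratin genes were followed across RNA sequencing libraries from CaSki, a human papillomavirus-positive cell line established from an epidermoid cervical carcinoma. Members were all symbols made of KRT, a number and at most a letter A, B or C, which leaves out keratin-associated proteins and pseudogenes. They numbered 55 of the 23277 gene symbols in the deposited tables. By the tissues in which they are known they fell into 3 basal, 16 suprabasal, 6 simple and 26 hair keratins, with 4 others that were not placed. There were 3 libraries of total RNA, 1 per group. The first came from cells with the retroviral vector pMSCV carrying FLAG-tagged NANOG, a homeobox factor of pluripotent cells, and given an siRNA against HDAC1, a histone deacetylase. The second came from NANOG cells with a control siRNA to GFP, and the third from cells with the empty pMSCV vector and the GFP siRNA. HDAC1 siRNA without NANOG was not analysed here, so its effect could be described only on top of NANOG. With 1 library per group there was no test, p-value or error for any difference, and the labels do not say whether the lines were clones or pools.

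Keratins are the intermediate filament proteins of epithelia. Each filament is built from pairs of an acidic type I and a basic type II keratin, so that epithelia express them in matched sets. Basal cells of stratified epithelia are known for KRT5 with KRT14, cornifying layers for KRT1 with KRT10, mucosal layers such as those of the ectocervix for KRT4 with KRT13, and wounded or proliferating epithelium for the KRT6 genes with KRT16 and KRT17. Columnar and glandular cells are known for KRT8 with KRT18, often beside KRT7 and KRT19, while hair keratins build the cortex and cuticle of the hair shaft. The type I genes lie in a cluster on chromosome 17 and the type II genes in a cluster on chromosome 12, at whose end lies KRT18, the type I gene outside the chromosome 17 cluster. KRT222, a keratin-like gene, was given neither type.

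The libraries followed their NANOG label, and HDAC1 was lowest with its siRNA. NANOG was at 325 FPKM (fragments per kilobase of transcript, scaled to library size) with HDAC1 siRNA, 298 FPKM with NANOG and GFP siRNA, and 0.0357 FPKM in empty vector cells, while HDAC1 was at 12.8, 108 and 19.02 FPKM in that order. The HDAC1 value of the NANOG GFP siRNA library therefore lay above those of both other libraries, and that library takes part in 2 of the 3 comparisons. Genes shared low values in steps of single fragments: 1 fragment in the empty vector library was worth 1.02 times that in the NANOG GFP siRNA library (466 of 2553 low genes at this ratio), and 1 fragment with HDAC1 siRNA was worth the same within rounding. From the step shared by 28 of 57 low genes with a single annotated transcript, 1 fragment was worth about 0.0377 FPKM in both NANOG libraries and 0.0384 FPKM in the empty vector library for a transcript of 1 kilobase. The fragment numbers given below are estimates from these steps and annotated transcript lengths, and carry no interval. Of the squamous markers KRT5, KRT14 and SFN were abundant in all libraries, whereas TP63, which encodes the basal cell factor p63, was at 0.785 to 1.29 FPKM and the desmoglein gene DSG3 at 0.0386 to 0.0506 FPKM. The cornified envelope genes of that list went opposite ways with NANOG: IVL was at 6.33, 4.61 and 10.2 FPKM and SPRR1B at 3.36, 4.16 and 1.12 FPKM in the order above, with differences of -0.99 and 1.29. The columnar markers KRT8, KRT18, EPCAM, CDH1 and MUC1 were all present, at 13.2 FPKM or more, but they also divided with NANOG. With GFP siRNA, KRT8 and KRT18 differed from empty vector by 0.58 and 0.51, and EPCAM, CDH1 and MUC1 by -0.25, -0.39 and -1.29. MUC1 was at 15.7, 13.2 and 33.8 FPKM in the order above. Markers of other cell types were low: the 4 endothelial genes summed to at most 0.493 FPKM, the 5 leukocyte genes to at most 0.466 FPKM and the 4 melanocyte genes to at most 0.881 FPKM, and the 8 fibroblast genes summed to 2.76, 4.80 and 4.08 FPKM in the order above, with COL1A1 highest. Of these COL1A2 stood out with NANOG and GFP siRNA, at 0.00649 FPKM with HDAC1 siRNA, 0.948 FPKM with NANOG and GFP siRNA, and 0.0198 FPKM in empty vector cells, and its part in the keratin values of that library was not tested.

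The 250 bases before the start are shown for the hair keratin KRT34, which differed most, for its chromosomal neighbours KRT33B and KRT31, and for KRT5. They come from RefSeq, build GRCh38.p14, a later build than the hg19 of the values, and all read 5′ to 3′ along the gene on the minus strand, at chr17:41382307-41382556, chr17:41369814-41370063, chr17:41397609-41397858 and chr12:52520395-52520644. Capitals mark TATAAA, the core of a TATA box.
KRT34: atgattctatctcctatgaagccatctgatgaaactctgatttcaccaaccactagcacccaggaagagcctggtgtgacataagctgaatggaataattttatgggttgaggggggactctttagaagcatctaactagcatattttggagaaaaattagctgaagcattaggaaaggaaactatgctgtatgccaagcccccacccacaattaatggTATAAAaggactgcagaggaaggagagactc
KRT33B: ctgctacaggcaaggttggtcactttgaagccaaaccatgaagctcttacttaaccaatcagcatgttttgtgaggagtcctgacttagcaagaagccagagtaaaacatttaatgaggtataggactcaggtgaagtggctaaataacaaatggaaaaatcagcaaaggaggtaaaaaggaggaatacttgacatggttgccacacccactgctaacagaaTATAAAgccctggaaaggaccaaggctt
KRT31: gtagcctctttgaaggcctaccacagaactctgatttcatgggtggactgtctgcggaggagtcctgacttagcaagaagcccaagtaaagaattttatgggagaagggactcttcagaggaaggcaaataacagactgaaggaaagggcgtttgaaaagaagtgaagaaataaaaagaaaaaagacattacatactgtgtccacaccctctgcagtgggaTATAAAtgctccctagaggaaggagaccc
KRT5: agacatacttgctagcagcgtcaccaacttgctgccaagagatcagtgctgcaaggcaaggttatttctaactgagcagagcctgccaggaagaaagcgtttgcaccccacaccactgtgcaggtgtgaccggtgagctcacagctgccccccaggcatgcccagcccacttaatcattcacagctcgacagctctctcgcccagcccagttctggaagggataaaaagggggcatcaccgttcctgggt
The motif began 31 bases before the start of KRT34, 28 bases before that of KRT33B and 29 bases before that of KRT31, and the KRT5 window did not hold these letters. Of the 55 keratins, 34 had 38 windows in the table, and 19 of these 38 windows (50%), each of a different gene, held TATAAA on the given strand, against 6.80% of all 35116 windows of the same length. On both strands 21 of 38 keratin windows (55.3%) held it, against 10.7% of all windows. Of the keratins abundant in every library, KRT7, KRT17, KRT18, KRT19 and KRT81 had no window. Those of KRT5 and KRT8 lacked TATAAA on the given strand. These shares therefore describe mostly keratins with little or no signal in these libraries. The KRT34 window was 59.6% identical to that of KRT33B and 61.2% to that of KRT31, while KRT33B and KRT31 were 64.0% identical, so the neighbouring windows differ in many bases outside the motif. KRT34 and KRT5, from different clusters, were 53.6% identical, below the KRT34 values against those neighbours. Within the chromosome 17 cluster, KRT34 was 62.8% identical to KRT37 and to KRT38 but only 52% to KRT9. Within the chromosome 12 cluster, KRT5 and KRT8 were 52.8% identical. Only chosen pairs were aligned and identity of unrelated windows was not computed, so whether identity follows the cluster was not tested.

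CaSki cells used few keratins, mainly simple keratins with the basal KRT5, KRT17 of wounded or proliferating epithelium, and the hair keratin KRT81. Only 19 of 55 keratins reached 1 FPKM in any library, 17 did so in all 3, and 7 were at 100 FPKM or more in every library. These 7 were KRT17, KRT8, KRT19, KRT18, KRT7, KRT5 and KRT81, which together held 97.0% of keratin FPKM with HDAC1 siRNA, 97.2% with NANOG and GFP siRNA and 95.9% in empty vector cells. A further 17 keratins were above 0 but under 1 FPKM in all libraries, and 19 were listed at 0 in all 3. The keratins as a whole summed to 6026 FPKM with HDAC1 siRNA, 7235 FPKM with NANOG and GFP siRNA, and 7158 FPKM in empty vector cells, which was 1.198%, 1.38% and 1.38% of the FPKM without small RNAs.

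**Figure D1:**
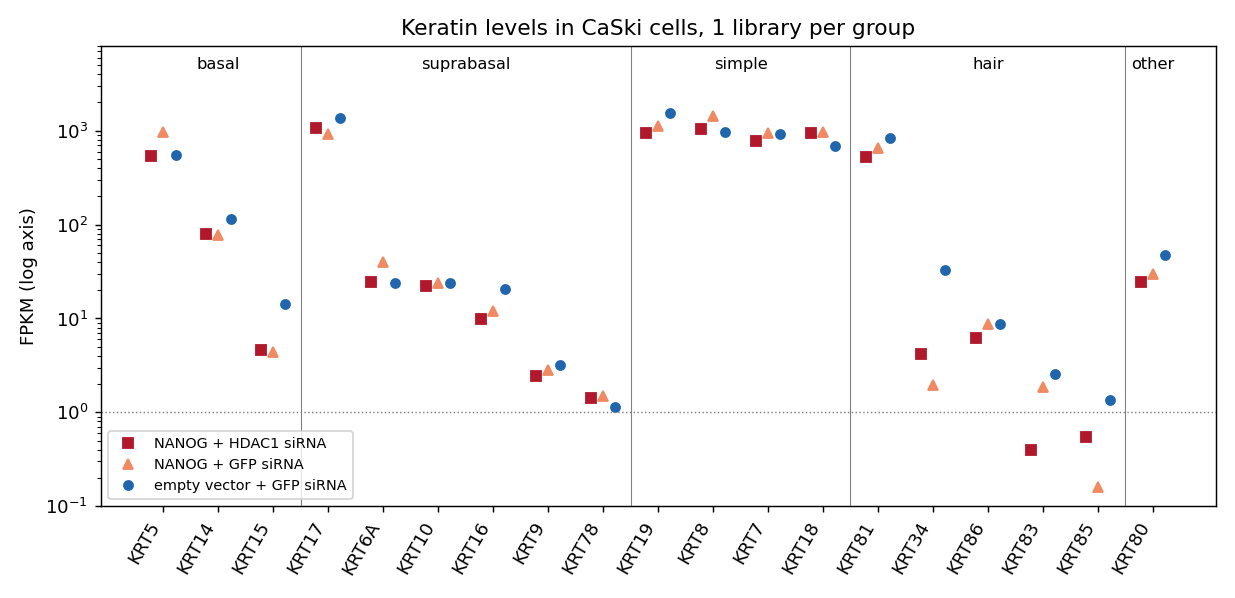
Levels of the 19 keratins at 1 FPKM or more in at least 1 library, on a log axis, grouped by class and ordered within each class by the empty vector value; each point is 1 library. KRT34 has the widest gap, at 4.22 FPKM with HDAC1 siRNA, 1.95 FPKM with NANOG and GFP siRNA, and 33.0 FPKM in empty vector cells.

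Differences between libraries were taken as log2(FPKM + 1), which understates the change of low genes, over the 11405 genes whose mean over the libraries reached 1 FPKM. A gene was counted as higher or lower from a difference of 1, which is 2-fold on this scale. Of the 55 keratins 18 passed the filter. All counts below describe these 3 libraries. Shares over all genes are for the deposited values and were not computed under other scalings. A bulk library cannot tell fewer cells expressing a keratin from less RNA per cell.

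The first comparison sets NANOG cells against empty vector cells, both with GFP siRNA. The hair keratin KRT34 and the basal keratin KRT15 were lower by at least 2-fold, and no keratin was higher by that much. This made 2 of 18 keratins lower, where 1.22% of all genes compared were lower and 0.675% were higher. By direction alone, 11 of the 18 keratins lay below 0 and 7 above 0, or 10 and 8 under 2 of 3 other scalings, where 50.8% of all genes lay below and 49.2% above 0. The median difference of the 18 keratins was -0.22, against -0.01 over all genes.

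The second comparison sets HDAC1 siRNA against GFP siRNA in NANOG cells, and shares the NANOG GFP siRNA library with the first. KRT83, a hair keratin, was lower by at least 2-fold and no keratin was higher by that much, where 0.21% of all genes were lower and 0.0877% higher. Of the 18 keratins 14 lay below and 4 above 0, or 13 and 5 as TPM (rescaled to a common total), where 46.6% of all genes lay below and 53.4% above 0, with a keratin median of -0.26 against 0.01 over all genes. The third comparison, HDAC1 siRNA with NANOG against empty vector, shares a library with each of the others. There KRT34, KRT15 and KRT83 were lower by at least 2-fold, 3 of 18 keratins against 0.824% of all genes, with 0 higher against 0.368%. By direction 14 keratins lay below and 4 above 0, or 13 and 5 as TPM, where 50.2% of all genes lay below and 49.8% above 0, and the keratin median was -0.39 against -0.00 over all genes.

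**Figure D2:**
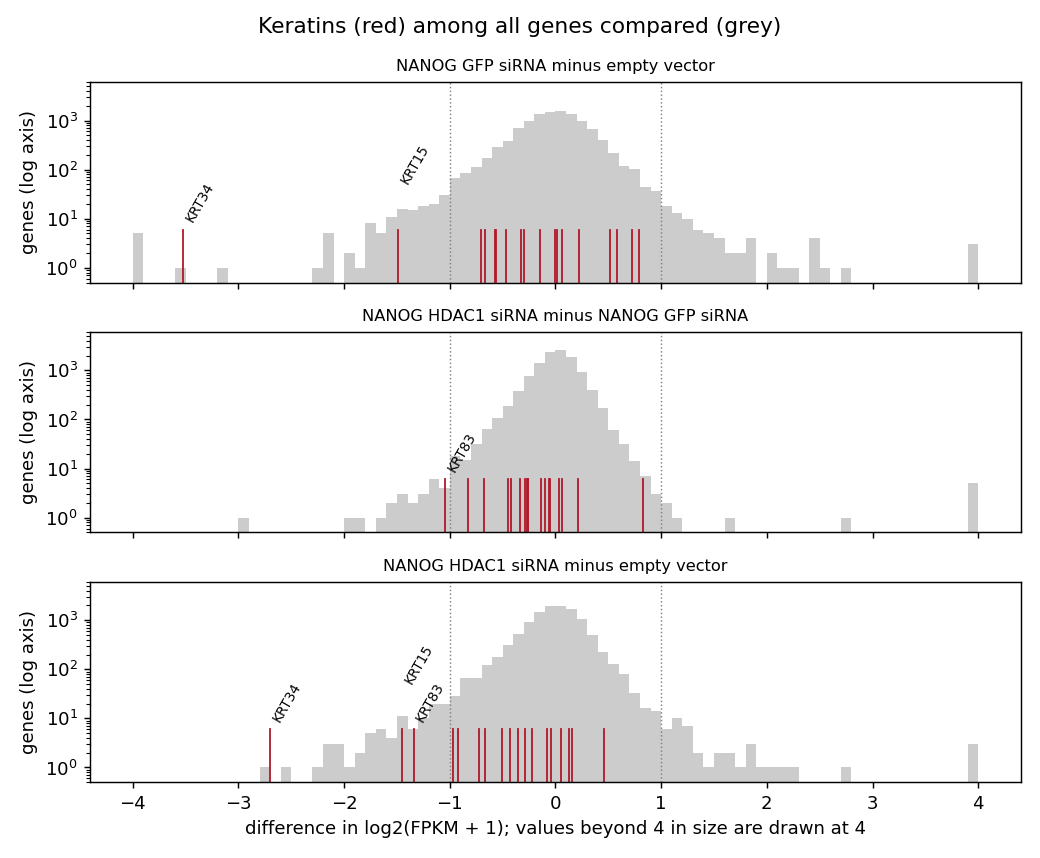
Differences in log2(FPKM + 1) of the 18 keratins that passed the filter (red lines) among all 11405 genes compared (grey bars, log axis), 1 panel per comparison. Names mark keratins at or past a difference of 1 in size: KRT34 and KRT15 in the top panel, KRT83 in the middle, and these 3 at the bottom.

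Among the basal keratins, the partners KRT5 and KRT14 went apart with NANOG, and KRT15 was the lowest of the 3 relative to empty vector cells. KRT5, the basal type II keratin, was at 540 FPKM with HDAC1 siRNA, 959 FPKM with NANOG and GFP siRNA, and 555 FPKM in empty vector cells. The NANOG GFP siRNA library thus stood above both others, as it did for HDAC1. Whether the KRT5 and HDAC1 values are linked was not tested. Differences of KRT5 were 0.79 for NANOG against empty vector, -0.83 for HDAC1 siRNA against GFP siRNA, and -0.04 for HDAC1 siRNA with NANOG against empty vector (0.01 as TPM). KRT14, its type I partner, had 80.4 FPKM with HDAC1 siRNA, 76.9 FPKM with NANOG and GFP siRNA, and 114 FPKM in empty vector cells. Both NANOG libraries lay below the empty vector library for KRT14, by -0.51 with HDAC1 siRNA and -0.57 with GFP siRNA. KRT5 per KRT14 was therefore 6.72 with HDAC1 siRNA, 12.5 with NANOG and GFP siRNA, and 4.85 in empty vector cells. No scaling of a library changes this ratio. Fragments of KRT14 are uncertain in part, since 23.8% of its windows of 50 bases occur in another gene, most often in KRT16. KRT15, a type I keratin of basal cells and of the stem cell region of the hair follicle, was at 4.57 FPKM with HDAC1 siRNA and 4.43 FPKM with GFP siRNA in NANOG cells, against 14.2 FPKM in empty vector cells. Its empty vector value was 3.21 times that with NANOG and GFP siRNA, a difference of -1.49, while the NANOG libraries differed by 0.04.

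Of the 16 suprabasal keratins 6 reached 1 FPKM in a library: 3 of 5 activation keratins (KRT17, KRT16 and KRT6A), 2 of 5 cornifying keratins (KRT10 and KRT9) and 1 of 6 mucosal and corneal keratins (KRT78). KRT17, a type I keratin of wounded and proliferating epithelium and of cervical reserve cells, was at 1065 FPKM with HDAC1 siRNA, 917 FPKM with NANOG and GFP siRNA, and 1359 FPKM in empty vector cells. It was lower in both NANOG libraries than with empty vector, by -0.35 and -0.57. KRT16, another type I keratin of wound healing, was at 9.90, 12.1 and 20.4 FPKM in that order, with differences from empty vector of -0.97 with HDAC1 siRNA and -0.71 with GFP siRNA. The first lies just inside the 2-fold limit and passed it with a smaller pseudocount, at -1.01 with 0.5 FPKM and -1.04 with 0.1 FPKM. KRT6A, the type II keratin that pairs with KRT16, had the pattern of KRT5 instead, at 24.5 FPKM with HDAC1 siRNA, 39.8 FPKM with NANOG and GFP siRNA, and 23.6 FPKM in empty vector cells, with differences of 0.73 for NANOG, -0.68 for HDAC1 siRNA and 0.05 for the third comparison. KRT6A per KRT16 was 2.47, 3.29 and 1.16 in the order of the libraries. The near-identical copies KRT6B and KRT6C had almost no signal. KRT6B had 0.0160 FPKM with either siRNA in NANOG cells and 0.0816 FPKM with empty vector, values of about 1 and about 5 fragments. KRT6C was listed at 0 in the NANOG libraries, while the empty vector library held 0.0325 FPKM, about 2 fragments. The annotated KRT6A transcript is 89.1% identical to that of KRT6B and 94.6% to that of KRT6C, and 39.1% of its windows of 50 bases occur in another gene, so the division of fragments among the 3 genes is uncertain.

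KRT10, the type I keratin of cornifying layers, was nearly level at 22.3, 24.0 and 23.6 FPKM, and its partner KRT1 was listed at 0 in all 3 libraries, as were KRT2 and KRT77 of the same layers. KRT9, known from palm and sole epidermis, was at 2.44 FPKM with HDAC1 siRNA, 2.80 FPKM with NANOG and GFP siRNA, and 3.20 FPKM in empty vector cells. Of the mucosal and corneal keratins, KRT78 was at 1.41, 1.51 and 1.15 FPKM, which is about 95 fragments with HDAC1 siRNA, 102 with GFP siRNA in NANOG cells and 77 in empty vector cells. KRT13, the type I keratin of ectocervical mucosa, was at 0.218 FPKM with HDAC1 siRNA, 0.0888 FPKM with NANOG and GFP siRNA, and 0.645 FPKM in empty vector cells, which is about 10, 4 and 29 fragments. Its partner KRT4 was listed at 0 in the NANOG libraries and had about 1 fragment in empty vector cells. The corneal keratin KRT3 was at 0.0791, 0.269 and 0.113 FPKM, and KRT12 and KRT76 were listed at 0 in all libraries. None of these low keratins entered the counts, since their means were under 1 FPKM, except KRT78.

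The simple keratins held more than any other class: 61.6% of keratin FPKM with HDAC1 siRNA, 62.1% with NANOG and GFP siRNA, and 57.5% in empty vector cells. KRT8, the main type II keratin of columnar cells, was at 1050, 1434 and 960 FPKM in that order, and so was again highest in the NANOG GFP siRNA library. Its differences were 0.58 for NANOG against empty vector, -0.45 for HDAC1 siRNA against GFP siRNA, and 0.13 for the third comparison. KRT18, its type I partner, was higher in both NANOG libraries, at 941 FPKM with HDAC1 siRNA and 975 FPKM with GFP siRNA, against 683 FPKM in empty vector cells, with differences of 0.46 and 0.51. Fragments of KRT18 are uncertain where its processed pseudogenes match, since 28.9% of its windows of 50 bases occur in 43 other annotated genes. KRT19, a type I keratin of columnar and reserve cells, went the other way, at 945 FPKM with HDAC1 siRNA and 1132 FPKM with GFP siRNA, against 1562 FPKM in empty vector cells, where it was the most abundant keratin. The KRT19 differences from empty vector were -0.72 with HDAC1 siRNA and -0.46 with GFP siRNA. KRT7, the type II keratin of glandular and transitional epithelium, was at 780, 952 and 913 FPKM, differing by 0.06 for NANOG and by -0.29 for HDAC1 siRNA. KRT8 per KRT19 was 1.11 with HDAC1 siRNA, 1.27 with NANOG and GFP siRNA, and 0.614 in empty vector cells, and KRT8 per KRT18 was 1.12, 1.47 and 1.41. The annotated genes KRT8 and KRT18 overlap, so without the strand setting some fragments could be assigned to either. KRT20, an intestinal keratin, and KRT23, which histone deacetylase inhibitors are known to raise in pancreatic cancer cells, were nearly silent. KRT20 was at 0.0206 FPKM with HDAC1 siRNA, listed at 0 with GFP siRNA in NANOG cells, and at 0.0210 FPKM in empty vector cells, and KRT23 was at 0.0342 FPKM in the NANOG GFP siRNA library and listed at 0 in the others.

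The hair keratins were represented by KRT81, abundant in all libraries, and by KRT34, which was the keratin with the widest range. KRT34, a type I keratin of the hair cortex, was at 4.22 FPKM with HDAC1 siRNA, 1.95 FPKM with NANOG and GFP siRNA, and 33.0 FPKM in empty vector cells. At about 196, 90 and 1502 fragments these values are well above a few fragments, and the empty vector library stood apart from both NANOG libraries. The difference was -3.53 for NANOG against empty vector, rank 6 from the lowest of 11405 genes. With HDAC1 siRNA it was -2.70 against empty vector, rank 1 from the lowest. That comparison does not use the NANOG GFP siRNA library, but both differences rest on the same empty vector library. HDAC1 siRNA against GFP siRNA gave 0.83, or 2.17 times the FPKM and rank 18 from the highest of all genes, which left KRT34 at 0.128 times its empty vector level. In its transcript 11.4% of windows of 50 bases occur in another gene, most often in KRT33B.

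The neighbours of KRT34 on chromosome 17 had far less signal, and among them only KRT33B had more than about 1 fragment. KRT33B had 0.0471 FPKM with either siRNA in NANOG cells and 0.623 FPKM with empty vector, about 2, 2 and 26 fragments. KRT33A had no value above 0 in the NANOG libraries and about 1 fragment in empty vector cells, and KRT31, on the other side of KRT34, was listed at 0 in all 3. KRT37, beyond KRT31, had 0.0218 FPKM with HDAC1 siRNA, about 1 fragment, and was listed at 0 in the other libraries. Fragments of KRT34 could be assigned to KRT33B or the reverse, since their transcripts are 76.5% identical and share stretches of 50 bases, and the part of this in the KRT33B values was not tested.

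Of the type II hair keratins, KRT81 was at 524 FPKM with HDAC1 siRNA, 661 FPKM with NANOG and GFP siRNA, and 831 FPKM in empty vector cells. The NANOG libraries lay below the empty vector library by -0.66 and -0.33. KRT86 was at 6.23, 8.70 and 8.71 FPKM, so that only the HDAC1 siRNA library was lower. KRT83 was at 0.396 FPKM with HDAC1 siRNA, 1.88 FPKM with NANOG and GFP siRNA, and 2.54 FPKM in empty vector cells, about 20, 94 and 124 fragments. Its differences were -1.05 for HDAC1 siRNA against GFP siRNA and -1.34 against empty vector, and -0.30 for NANOG against empty vector. KRT85 was at 0.540, 0.161 and 1.34 FPKM, about 35, 10 and 85 fragments. Its difference of -1.01 for NANOG against empty vector was not counted because its mean was under 1 FPKM. KRT81, KRT83 and KRT86 cannot be fully separated: the annotated genes KRT81 and KRT86 overlap, the use of strand is not given in the sources used here, and 44.6% of KRT81, 40.5% of KRT86 and 12.8% of KRT83 windows of 50 bases occur in another gene. With the 3 genes summed as 1 entry, a choice made after the values were seen, 0 keratins were lower by at least 2-fold with HDAC1 siRNA against GFP siRNA.

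The remaining hair keratins were silent or at single fragments. Of 17 hair shaft keratins 8 were listed at 0 in all libraries, namely KRT31, KRT35, KRT36, KRT38, KRT39, KRT40, KRT82 and KRT84. Of the 9 keratins of the inner root sheath and companion layer, KRT26, KRT27, KRT28, KRT72 and KRT73 were listed at 0 in all libraries, and the highest value of the other 4 was 0.0225 FPKM, of KRT25. The keratin-associated proteins, which crosslink hair keratins in the shaft, were likewise at most at 0.177 FPKM, with 72 of 88 symbols listed at 0 in all 3 libraries. The 5 markers of hair matrix and cortex, KRT85 among them, summed to 1.58 FPKM with HDAC1 siRNA, 1.94 FPKM with NANOG and GFP siRNA, and 2.47 FPKM in empty vector cells. 

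Among the keratins not placed in a class, KRT80, a type II keratin of many epithelia, was at 24.6 FPKM with HDAC1 siRNA, 29.7 FPKM with NANOG and GFP siRNA, and 47.7 FPKM in empty vector cells. Both NANOG libraries were below the empty vector library, by -0.93 and -0.67. KRT24 was listed at 0 in all libraries, and KRT79 and KRT222 had about 1 fragment where they had any. In all, 15 of the 17 keratins above 0 and under 1 FPKM stayed under 0.3 FPKM, and 14 of these 15 had fewer than 6 estimated fragments in every library. KRT3, with about 17 fragments in the NANOG GFP siRNA library, was the exception.

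Read along the chromosomes, the chromosome 17 keratins were mostly lower with NANOG while the chromosome 12 keratins divided. This arrangement was noticed after the values were seen. Of the 8 chromosome 17 keratins that passed the filter, 7 were below 0 for NANOG against empty vector, with a median of -0.57, and KRT10 at 0.02 was the exception. For HDAC1 siRNA with NANOG against empty vector all 8 were below 0, with a median of -0.61. HDAC1 siRNA against GFP siRNA put 4 of 8 below 0, with a median of -0.03. Over all genes compared, 50.8% lay below 0 for NANOG against empty vector, with a median of -0.01. The share was 50.2% for HDAC1 siRNA with NANOG against empty vector, with a median of -0.00. It was 46.6% for HDAC1 siRNA against GFP siRNA, with a median of 0.01. On chromosome 12, KRT5, KRT6A, KRT8, KRT18, KRT78 and KRT7 were above 0 with NANOG and KRT80, KRT81, KRT83 and KRT86 below 0, with KRT86 at -0.00 and above 0 under 2 of 3 other scalings. The 4 keratins below 0 hold places 1, 3, 4 and 5 of 27 in that cluster, with KRT7 at place 2, while KRT6A and KRT5 stand at places 12 and 13 and KRT78, KRT8 and KRT18 at places 25 to 27. With HDAC1 siRNA against GFP siRNA all 10 chromosome 12 keratins were below 0, with a median of -0.38, except that KRT18 (-0.05) was level under rescaling to TPM, at 0.00.

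**Figure D3:**
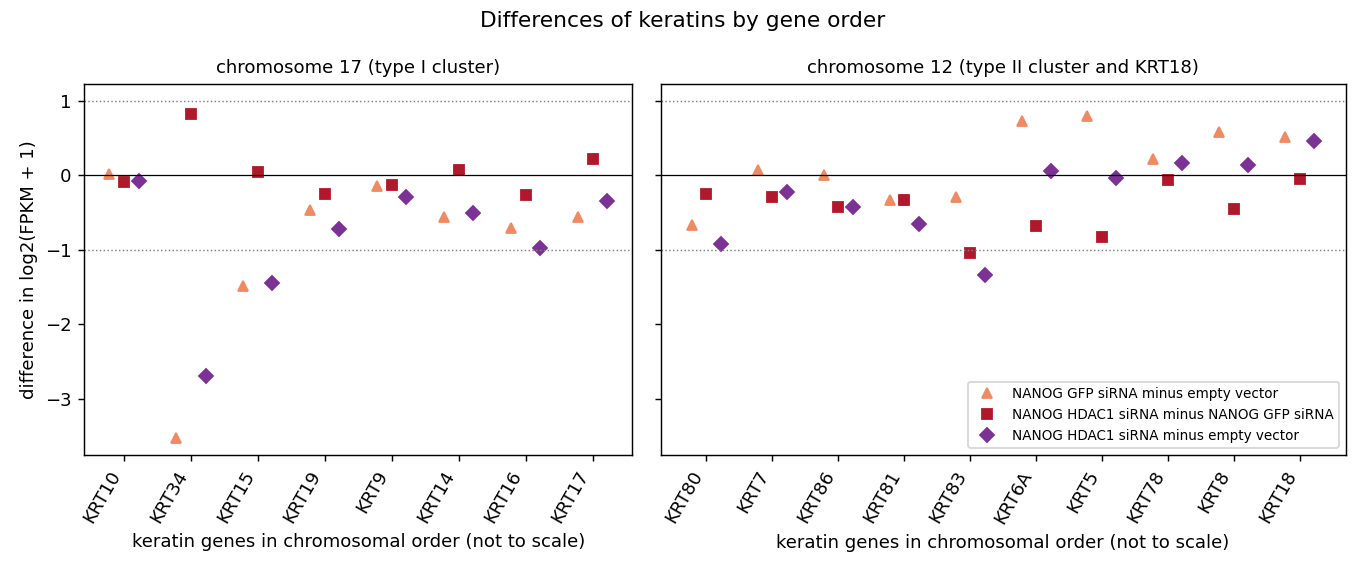
Differences in log2(FPKM + 1) of the 18 keratins that passed the filter, in chromosomal order and not to scale, on chromosome 17 (left) and chromosome 12 (right), with 3 comparisons marked by shape and dotted lines at a difference of 1 in size. KRT34 stands lowest at -3.53 for NANOG against empty vector, and KRT6A, KRT5, KRT8 and KRT18 on the right are above 0 in that comparison.

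The balance of the keratin types differed between libraries. Type II keratins summed to 2951 FPKM with HDAC1 siRNA, 4089 FPKM with NANOG and GFP siRNA, and 3343 FPKM in empty vector cells. Type I keratins summed to 3074, 3147 and 3814 FPKM in the same order. Type II per type I was 0.960 with HDAC1 siRNA, 1.30 with NANOG and GFP siRNA, and 0.877 in empty vector cells, so the NANOG GFP siRNA library was the only library of the 3 with more type II than type I keratin RNA. By class, basal keratins held 10.4%, 14.4% and 9.55% of keratin FPKM in that order, suprabasal keratins 18.7%, 13.8% and 20.01%, and hair keratins 8.89%, 9.32% and 12.3%. The suprabasal share rested on KRT17: counted with the basal class instead, it left 1.01%, 1.11% and 1.02% for the suprabasal keratins. The class medians of the members that passed the filter were, for NANOG against empty vector, -0.57 for 3 basal, -0.06 for 6 suprabasal, 0.29 for 4 simple and -0.31 for 4 hair keratins. For HDAC1 siRNA against GFP siRNA they were 0.04, -0.12, -0.27 and -0.38 in that order, though by the mean the basal class was at -0.24. For NANOG the suprabasal median was 0.02 with KRT17 moved to the basal class. With no filter on low values, which adds keratins at or near 0, the NANOG medians were 0.05 for the simple and 0 for the hair class.

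**Figure D4:**
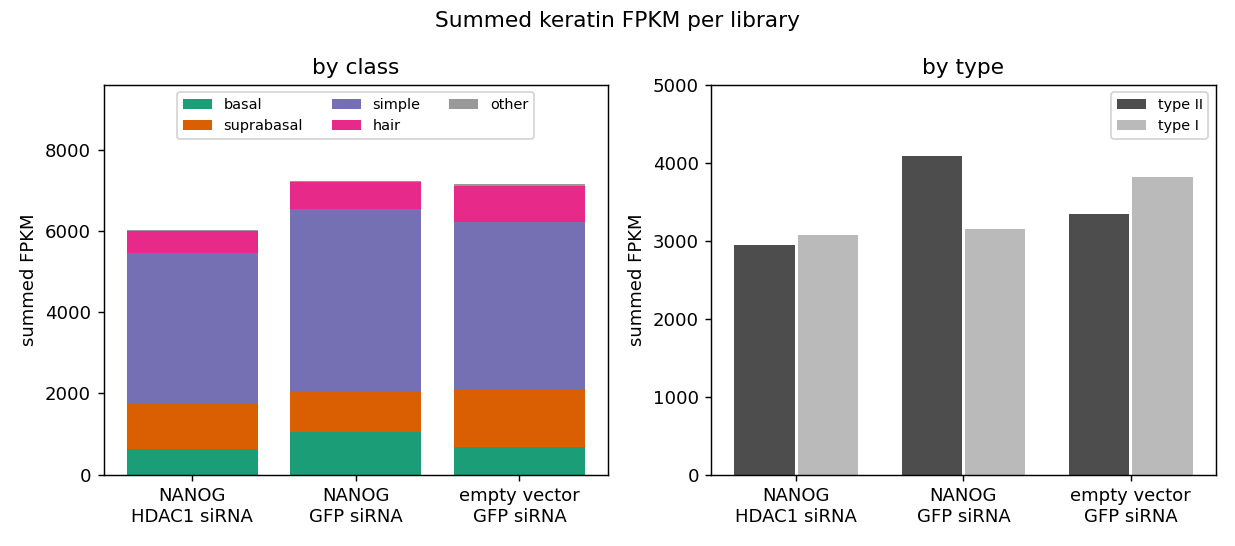
Summed FPKM of all 55 keratins per library, stacked by class (left) and by keratin type (right), with axes from 0 and 1 library per bar. Type II exceeds type I in the NANOG GFP siRNA library, at 4089 against 3147 FPKM, and lies below it in the others.

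Genes for linkers of keratin filaments and for other intermediate filaments were set beside the keratins, again as counts. Of 17 linkers and filament binding proteins 12 passed the filter, and 10 of them were below 0 for NANOG against empty vector, with a median of -0.19 and none past 2-fold, where 50.8% of all genes lay below 0 and their lower quartile was -0.21. Among these, PPL, which encodes periplakin, was at 11.7 FPKM with HDAC1 siRNA, 13.1 FPKM with NANOG and GFP siRNA, and 22.1 FPKM in empty vector cells. JUP, which encodes the desmosomal plakoglobin, was at 141, 135 and 210 FPKM, again lower in both NANOG libraries. The 2 genes above 0 were PNN, which encodes pinin, at 22.8, 29.2 and 21.6 FPKM, and TCHP, which encodes the keratin-binding trichoplein, at 11.7, 11.1 and 8.20 FPKM. Under a common upper quartile 9 linkers lay below 0. For HDAC1 siRNA against GFP siRNA 6 were above and 6 below 0, where 53.4% of all genes lay above and 46.6% below 0. As TPM 9 were above and 3 below 0, but the median over all genes also moved, from 0.01 to 0.07. Of 15 other intermediate filament genes 9 passed the filter and 7 of them were above 0 with NANOG, with a median of 0.16, where 49.2% of all genes lay above 0 and their upper quartile was 0.19. The neurofilament genes NEFM (1.58) and NEFL (1.37) were past 2-fold, as were 0.675% of all genes in that direction. NEFM was at 3.85 FPKM with HDAC1 siRNA, 6.44 FPKM with NANOG and GFP siRNA, and 1.48 FPKM in empty vector cells. VIM, which encodes the mesenchymal filament vimentin, was at 52.9 and 50.04 FPKM in the NANOG libraries with HDAC1 and GFP siRNA, against 25.97 FPKM in empty vector cells. LMNA, which encodes the nuclear lamins A and C, was highest in the NANOG GFP siRNA library, at 222, 297 and 207 FPKM.

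Of 17 regulators of epithelial and hair keratins, 13 passed the filter. For NANOG against empty vector 7 were above and 6 below 0, with a median of 0.10 and none past 2-fold. Over all genes 49.2% lay above 0, with a median of -0.01. By at least 2-fold, 0.675% of all genes were higher and 1.22% lower. MSX2, a homeobox factor of hair and skin, was the furthest from 0, with 4.45 FPKM with HDAC1 siRNA, 5.30 FPKM with NANOG and GFP siRNA, and 2.22 FPKM in empty vector cells. KLF4, a factor of epithelial differentiation, was at 53.6, 40.9 and 46.6 FPKM. HOXC13, a homeobox factor that drives hair keratins, ranged between 1.004 and 1.734 FPKM and was highest with NANOG and GFP siRNA. TP63 was at 1.004 FPKM with HDAC1 siRNA, 0.785 FPKM with NANOG and GFP siRNA, and 1.285 FPKM in empty vector cells. Whether any of these genes takes part in the keratin differences was not tested.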

How the data were processed

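Total RNA of 3 CaSki cultures was sequenced, 1 library per group, with groups taken from the sample titles. Per the labels' protocols, RNA was extracted with Trizol and made into stranded libraries by a TruSeq kit for total RNA. TopHat2, Cufflinks and hg19 are named, per the submitters' processing notes; their versions, the annotation and the strand setting were not stated there. The deposited values are FPKM, 1 per symbol and library; a wrong division of fragments among similar keratins passes straight into them.

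From these, differences of log2(FPKM + 1) were computed after leaving out 1627 small RNA symbols. Genes averaging 1 FPKM or more (11405) were compared, and a difference of at least 1 was counted. Every keratin at 1 FPKM or more in a library was named, with keratins at 0, the highest of each class below 1 FPKM, and up to 4 companion genes per list by size of difference; other low keratins were named after their values were seen. The members, classes and companion lists were chosen with earlier results of these data known. Shared windows of 50 bases and transcript identity came from GENCODE release 29 transcripts, promoters and gene order from RefSeq (GRCh38.p14). The steps were tested on simulated data. Python 3.11.15, numpy 2.4.6, pandas 2.3.3, biopython 1.88 and matplotlib 3.10.9 were used. Alternatives were pseudocounts, filters, scalings, thresholds, summed paralogs and class membership; 2 were added after the values were seen.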

Additional observations from a re-analysis of the deposited data

How the results depend on the processing

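The 2-fold counts rest on few genes and followed the threshold. At 1.5-fold, NANOG against empty vector gave 2 keratins higher and 4 lower, HDAC1 siRNA against GFP siRNA 1 higher and 3 lower, and HDAC1 siRNA with NANOG against empty vector 7 lower. At 3-fold these comparisons gave 1, 0 and 1 lower. The share of all genes past 1.5-fold or 3-fold was not computed, so these counts stand without a background. A pseudocount of 0.1 FPKM made KRT34 the 1 keratin higher with HDAC1 siRNA against GFP siRNA, at 1.08. Pseudocounts of 0.1 and 0.5 FPKM each gave 4 keratins lower in place of 3 for HDAC1 siRNA with NANOG against empty vector, KRT16 being gained at -1.04 and -1.01. With no filter, or as TPM, 3 were lower in place of 2 for NANOG against empty vector. For HDAC1 siRNA against GFP siRNA, 0 were lower with a filter at 5 FPKM or with KRT81, KRT83 and KRT86 summed. KRT83 is then not counted on its own, and the summing was added after the values were seen. Both settings left 2 lower for NANOG against empty vector. The hair median for HDAC1 siRNA with NANOG against empty vector, -1.003, was 0 with no filter, -0.66 with a filter at 5 FPKM or without KRT34 (that choice also added after the values were seen), -0.99 at a common upper quartile and -0.79 as TPM. By the mean over members the hair class was at -1.04 for NANOG against empty vector. With KRT17 in the basal class, that class held 28.0%, 27.1% and 28.5% of keratin FPKM with HDAC1 siRNA, NANOG with GFP siRNA and empty vector, and the suprabasal class 1.01%, 1.11% and 1.02%. Of the alternative values of counts, medians and shares, 193 kept their side of the threshold or stayed within 1.5 times, including some listed above. Medians near 0 could change sign within this. The basal median of 0.04 for HDAC1 siRNA against GFP siRNA was -0.24 by the mean. The suprabasal median of -0.06 for NANOG against empty vector was 0.02 with KRT17 in the basal class. No paired analysis was possible because each group held 1 library. Depth limits the keratins under 0.3 FPKM, of which 14 of 15 had fewer than 6 estimated fragments in every library.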

Other observations

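The 6 keratin pseudogenes listed in the files, which the choice of members left out, had almost no signal of their own. KRT17P1, KRT18P11, KRT19P1 and KRT87P were not among them. These share the most windows of 50 bases with KRT17, KRT18, KRT19 and KRT83, and their signal is not described. KRT18P55 was at 0.0949 FPKM with HDAC1 siRNA, 0.0759 FPKM with NANOG and GFP siRNA, and 0.0967 FPKM in empty vector cells, the highest of the 6 listed. KRT8P41 was listed at 0 with HDAC1 siRNA and stood at 0.0204 FPKM with NANOG and GFP siRNA and 0.0415 FPKM in empty vector cells. KRT42P was at 0.0378, 0.0252 and 0.0128 FPKM in the order of the libraries. KRT16P2, KRT16P3 and KRT19P2 were each listed at 0 in at least 2 libraries.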
